A study of Homo sapiens with 16 samples.

Results

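The CXC chemokine cluster on chromosome 4 was examined in H3K27ac ChIP-seq peak lists of triple-negative breast cancer (TNBC) cells treated with TWEAK. Its 6 members are CXCL8, CXCL6, CXCL1, CXCL5, CXCL3 and CXCL2, out of 20046 protein-coding genes of the GENCODE 44 annotation, and they are defined by name and position. The window ran from 100 kb before the first to 100 kb after the last of them, hg38 chr4:73640519-74199196 (558.7 kb, of which the genes span 358.7 kb). It held 359 of the 705670 peaks of all lists and 30 of the 55219 consensus regions, a consensus region being a stretch of merged peaks found in at least 2 lists. The regions are numbered 1 to 30 along the plus strand.

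MDA-MB-231 and Hs578T, both established human TNBC lines, were each studied in a control and an Fn14 knockout (KO) version. All cells were starved in Opti-MEM for 8 h and then left untreated or given TWEAK at 10 ng/ml for 48 h, with fresh TWEAK after 24 h. TWEAK is a cytokine of the TNF family and Fn14, encoded by TNFRSF12A, is its receptor. With 2 samples in each of the 8 groups and 1 peak list per sample, 16 lists were compared. The KO cells were made in each line with an inducible CRISPR vector and 2 different guides and were identified by western blot and Sanger sequencing, and the labels do not tell which guide or clone a list came from. The study's methods describe biological replicates for ChIP-seq of cell lines, but neither they nor the labels tell which culture or day a list came from, and p-values measure the spread between these samples. A peak list of a bulk culture cannot tell a larger share of acetylated cells from more acetylation per cell.

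CXCL8, CXCL6, CXCL1, CXCL5, CXCL3 and CXCL2 encode small secreted proteins with an ELR motif before the CXC motif, which attract neutrophils through the receptors CXCR1 and CXCR2. In tumour cells and stroma these genes are known as targets of inflammatory cytokines, and NF-κB bound next to their start sites is the textbook route of their induction. H3K27ac, acetylation of lysine 27 of histone H3, marks active promoters and enhancers, so a wider or stronger peak reports more acetylated chromatin at a site and not the amount of transcript.

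The promoters of CXCL8, CXCL1, CXCL3 and CXCL2, the 4 members with a peak over the start site in some or all lists, are shown from the 250 bases before the RefSeq start (GRCh38.p14, each on the strand of its gene). All 6 members matched the RefSeq table. Capitals mark matches to GGAATTTCC (GGAAATTCC on the other strand), a form of the NF-κB site called kB here, and to TGANTCA, the AP-1 site, which reads the same on both strands. Both sets of letters were chosen after the promoters had been seen. The RefSeq start lay 50 bp downstream of the GENCODE start in CXCL8, 118 bp in CXCL3 and 1 bp in CXCL2, and coincided with it in CXCL1.
CXCL8 promoter, chr4:73740319-73740568, plus strand: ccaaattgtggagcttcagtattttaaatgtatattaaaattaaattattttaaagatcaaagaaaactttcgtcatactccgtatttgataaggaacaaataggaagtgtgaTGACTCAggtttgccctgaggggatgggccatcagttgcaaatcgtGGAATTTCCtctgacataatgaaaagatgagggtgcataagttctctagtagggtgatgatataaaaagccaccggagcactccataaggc
CXCL1 promoter, chr4:73869143-73869392, plus strand: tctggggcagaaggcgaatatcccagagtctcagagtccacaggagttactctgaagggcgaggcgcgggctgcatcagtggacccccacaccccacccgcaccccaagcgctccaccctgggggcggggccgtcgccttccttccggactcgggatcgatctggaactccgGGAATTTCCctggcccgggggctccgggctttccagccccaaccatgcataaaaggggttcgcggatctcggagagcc
CXCL3 promoter, chr4:74038690-74038939, minus strand: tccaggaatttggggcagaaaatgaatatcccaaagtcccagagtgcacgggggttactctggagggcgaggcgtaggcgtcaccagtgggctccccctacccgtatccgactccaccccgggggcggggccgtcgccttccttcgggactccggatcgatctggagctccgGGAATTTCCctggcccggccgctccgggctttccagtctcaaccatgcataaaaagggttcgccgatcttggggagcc
CXCL2 promoter, chr4:74099196-74099445, minus strand: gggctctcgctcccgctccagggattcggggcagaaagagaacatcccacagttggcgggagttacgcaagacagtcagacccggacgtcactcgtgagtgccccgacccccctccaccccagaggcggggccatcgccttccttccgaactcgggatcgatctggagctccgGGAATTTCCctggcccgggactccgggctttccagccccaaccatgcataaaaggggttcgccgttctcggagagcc

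A single kB match was present in each of the 6 promoters, with its first base 91 bases before the RefSeq start in CXCL8, 89 in CXCL6, 78 in CXCL1, 90 in CXCL5, 78 in CXCL3 and 77 in CXCL2. Of all 35116 RefSeq promoters of the same length, 145 (0.413%) held such a match. As the letters were chosen with the 6 promoters seen, this share cannot test whether the match is enriched in them. The AP-1 letters were found in CXCL8 alone among the 6, starting 137 bases before its start, and in 6.57% of all promoters. In aligned promoters CXCL1 and CXCL3 shared 81.4% of positions, CXCL3 and CXCL2 73.3%, and CXCL6 and CXCL5 85.3%, whereas CXCL8 shared between 42% and 45.4% with the others. A match is a description of the letters and does not show that a factor was bound.

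The centres of regions 7, 25 and 29, 300 bases each on the plus strand of hg38, are shown because these were the regions gained with TWEAK in control cells of both lines. Region 7 lies between genes 18 kb upstream of CXCL8, region 25 between genes 27.4 kb downstream of the CXCL2 start, and region 29 in an intron of MTHFD2L 34.3 kb upstream of CXCL2. Capitals again mark kB and AP-1 matches.
Region 7 centre, chr4:73721896-73722195: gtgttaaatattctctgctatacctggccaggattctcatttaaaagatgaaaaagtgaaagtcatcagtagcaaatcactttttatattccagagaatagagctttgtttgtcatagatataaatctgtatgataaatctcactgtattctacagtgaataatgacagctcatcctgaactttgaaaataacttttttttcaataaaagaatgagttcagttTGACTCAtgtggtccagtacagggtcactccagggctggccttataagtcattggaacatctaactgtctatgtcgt
Region 25 centre, chr4:74070954-74071253: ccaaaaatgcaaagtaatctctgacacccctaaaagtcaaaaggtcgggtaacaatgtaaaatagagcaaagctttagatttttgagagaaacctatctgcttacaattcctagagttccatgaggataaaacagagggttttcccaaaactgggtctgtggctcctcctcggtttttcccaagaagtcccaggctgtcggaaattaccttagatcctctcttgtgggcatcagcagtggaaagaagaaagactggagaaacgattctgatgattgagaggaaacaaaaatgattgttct
Region 29 centre, chr4:74133782-74134081: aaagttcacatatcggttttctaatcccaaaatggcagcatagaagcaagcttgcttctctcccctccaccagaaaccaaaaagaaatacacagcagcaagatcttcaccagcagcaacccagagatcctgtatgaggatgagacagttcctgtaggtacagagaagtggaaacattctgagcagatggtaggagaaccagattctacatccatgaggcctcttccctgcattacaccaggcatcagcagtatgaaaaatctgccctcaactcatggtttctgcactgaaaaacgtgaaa

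These stretches held 1 AP-1 match, in region 7, and no kB match. Over the 30 regions of the window, 13 centres of that length had an AP-1 match and 0 had a kB match, against 26.1% and 0.652% of the centres of all consensus regions. Outside the centres, regions 8, 10, 15, 21, 23 and 26 each held 1 kB match over their whole length, and regions 10, 15, 23 and 26 are those that contain the start sites of CXCL8, CXCL1, CXCL3 and CXCL2. The kB matches in regions 10, 15, 23 and 26 are the promoter matches described above, which had been seen when the letters were chosen. Region 27, upstream of CXCL2 and reaching over the MTHFD2L start, held 7 AP-1 matches over its 8314 bp. Shares over all consensus regions were counted for the centres only. The counts over whole regions, which differ in length, therefore have no background beside them.

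The lists held 39544 to 47197 peaks over 64.2 to 88.9 Mb, and reads were not used here, so the depth behind a value is unknown. The median fold enrichment of a list lay between 5 and 5.89. The median −log10 q-value was 5.79 to 7.69 in the MDA-MB-231 Fn14 KO lists and 9.44 to 10.8 in the MDA-MB-231 control lists. In Hs578T KO and control lists it was 8.24 to 8.61 and 7.86 to 9.04. Among control lists it was 9.44 and 9.95 untreated and 10.5 and 10.8 with TWEAK in MDA-MB-231. Those of Hs578T had 8.84 and 7.86 untreated and 9.04 and 9.04 with TWEAK. The median fold of control lists was likewise higher with TWEAK, 5.89 and 5.88 against 5.53 and 5.6 in MDA-MB-231. In Hs578T it was 5.47 and 5.45 against 5.27 and 5.18. Both medians move with TWEAK in control cells, and their part in the results below was not tested. At TNFRSF12A a peak lay within 2 kb of the start in 16 of 16 lists, with 4413 to 5126 bp covered within 10 kb. H3K27ac at this promoter does not show whether the coding sequence was disrupted, so the KO labels were not checked by it. VIM, CD44, AXL and CAV1, markers of mesenchymal-like cells, had a peak within 2 kb of the start in 16 of 16 lists, and ESR1 and PGR, markers of luminal cells, in 0. GATA3, a luminal marker too, had one in 16 lists and FOXA1 in 2, and of the leukocyte markers PTPRC had one in 0 lists and CD14 in 6.

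To examine whether TWEAK altered H3K27ac over the cluster and whether this depended on Fn14, the length covered by peaks in the window was compared first. With TWEAK, peaks covered more of the cluster in control cells of both lines, with the largest difference in bp around CXCL3, while treated and untreated Fn14 KO lists overlapped. MDA-MB-231 control cells had 30816 and 35437 bp under peaks when untreated and 53101 and 56302 bp with TWEAK. Hs578T control cells had 40512 and 38125 bp untreated and 63743 and 60476 bp with TWEAK. The TWEAK lists of control cells lay above the untreated ones in both lines, without overlap. Among Fn14 KO lists of MDA-MB-231, 30930 and 27229 bp were covered in untreated cells and 27879 and 30206 bp with TWEAK. In Hs578T these were 38767 and 37859 bp untreated and 40157 and 36986 bp with TWEAK. TWEAK and untreated lists of KO cells overlapped in both lines.

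For MDA-MB-231 control cells the group means were 33126.5 ± 3267.5 bp (SD, n = 2) untreated and 54701.5 ± 2263.4 bp (SD, n = 2) after treatment, 1.65 times as much. For Hs578T control cells they were 39318.5 ± 1687.9 bp (SD, n = 2) and 62109.5 ± 2310.1 bp (SD, n = 2), 1.58 times as much. The corresponding ratios were 0.999 in MDA-MB-231 and 1.01 in Hs578T Fn14 KO cells. Averaged over the lines, the TWEAK difference of control cells was 22183.0 bp (exact permutation p = 0.0556, adjusted p = 0.0694), whereas KO cells differed by 110.8 bp (exact permutation p = 1, adjusted p = 1). With 36 arrangements within 1 genotype 0.0556 is the smallest p-value possible, so that a comparison within control cells alone could not pass 0.05. The TWEAK differences of the genotypes differed by 22072.2 bp (exact permutation p = 0.0293), which did not pass after adjustment over the 15 tests (adjusted p = 0.055). It passed when the window was limited to the genes without flanks (19329.2 bp, exact permutation test, adjusted p = 0.0278) and when all lists were trimmed to the number of peaks of the shortest (21385.5 bp, exact permutation test, adjusted p = 0.0434). Under the other alternatives that kept all lists it did not pass, with adjusted p-values of up to 0.132 (exact permutation test).

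**Figure D1:**
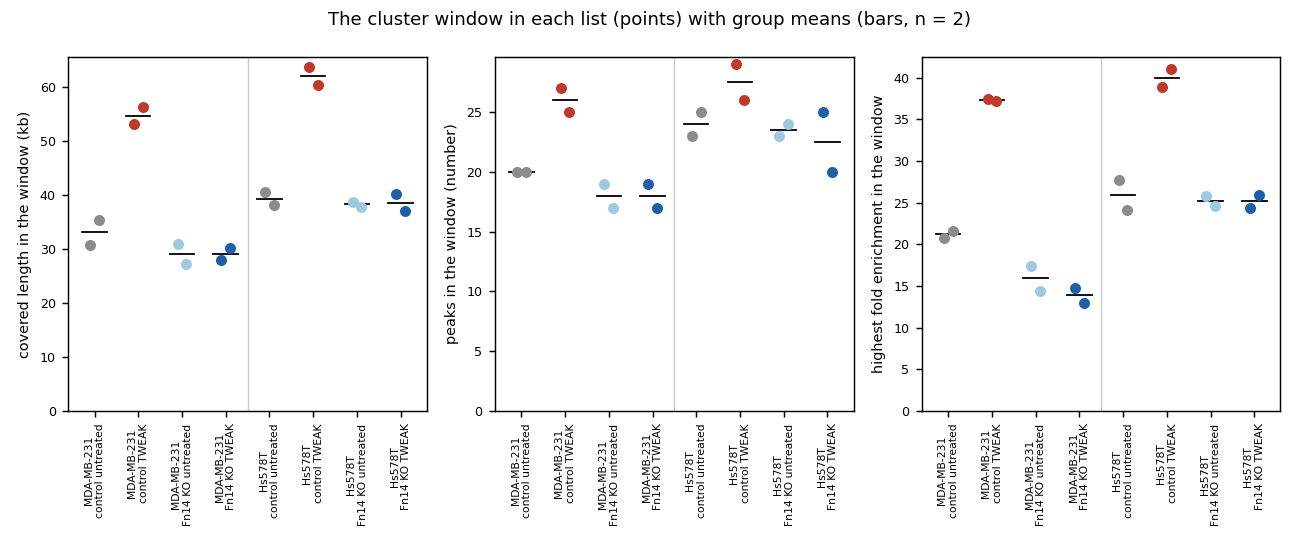
Covered length (kb), number of peaks and highest fold enrichment in the window for each list (points) and group mean (bars, n = 2), by line, genotype and treatment. The 4 control TWEAK lists cover 53101 to 63743 bp and the other 12 lists 27229 to 40512 bp.

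Fn14 KO lists covered less of the window than control lists, by a mean difference of -13562.4 bp over both treatments (exact permutation p = 0.00617, adjusted p = 0.0185). Untreated KO cells had 0.878 times the control length in MDA-MB-231 and 0.974 times in Hs578T, and the genotypes overlapped in MDA-MB-231, with 27229 to 30930 bp in KO and 30816 to 35437 bp in control cells, as they did in Hs578T. After TWEAK the ratios were 0.531 and 0.621, without overlap. Scaled to each list's total covered length, the KO difference was -175.3 bp per Mb (exact permutation p = 0.00154, adjusted p = 0.0116). The lower q-values of the MDA-MB-231 KO lists, given above, move with this comparison in that line, and their part in it was not tested. In Hs578T the lists after TWEAK were also apart. So were their median −log10 q-values, 9.04 and 9.04 in control and 8.49 and 8.24 in KO lists, and their part was not tested either.

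MDA-MB-231 lists covered less of the window than Hs578T lists, with a mean difference of -8090.6 bp (exact permutation p = 0.00154, the smallest possible, adjusted p = 0.0116). Scaled to the total covered length of each list this became -27.3 bp per Mb and no longer passed (exact permutation p = 0.054, adjusted p = 0.0694).

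The number of peaks in the window behaved less evenly. MDA-MB-231 control cells had 20 and 20 peaks untreated and 27 and 25 with TWEAK, and Hs578T control cells 23 and 25 untreated and 29 and 26 with TWEAK. KO cells had 19 and 17 untreated and 19 and 17 with TWEAK in MDA-MB-231, and 23 and 24 untreated and 25 and 20 with TWEAK in Hs578T. Control cells differed by 4.75 peaks with TWEAK (exact permutation p = 0.0556, adjusted p = 0.0694), KO cells by -0.5 (exact permutation p = 0.944, adjusted p = 1). Their difference of 5.25 peaks did not pass after adjustment (exact permutation p = 0.0478, adjusted p = 0.0694). KO lists held fewer peaks than control lists, with a mean difference of -3.88 (exact permutation p = 0.00926, adjusted p = 0.0231), a call that was lost without Hs578T control TWEAK sample 1 (a difference of -3.5, exact permutation test, adjusted p = 0.0666) or without Hs578T KO TWEAK sample 2 (-3.25, exact permutation test, adjusted p = 0.0529). MDA-MB-231 lists held fewer than Hs578T lists by the same mean difference, -3.88 (exact permutation p = 0.00463, adjusted p = 0.0174).

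The highest fold enrichment in the window belonged to region 27 in all 16 lists. Region 27 (chr4:74106689-74115002) starts 7.49 kb upstream of CXCL2 and reaches the start and first exon of MTHFD2L, a mitochondrial folate enzyme gene on the other strand. Its fold was 20.8 and 21.6 in untreated and 37.4 and 37.2 in TWEAK-treated MDA-MB-231 control cells. The Hs578T control lists had 27.7 and 24.1 untreated and 38.8 and 41 with TWEAK. All 4 control TWEAK lists were therefore above every other list. In KO cells the fold was 17.4 and 14.4 untreated and 14.7 and 12.9 with TWEAK in MDA-MB-231, and 25.7 and 24.6 untreated and 24.4 and 25.9 with TWEAK in Hs578T. In fold, KO cells showed no separation by treatment. In covered length region 27 was higher with TWEAK in KO cells of both lines. MDA-MB-231 KO cells had 6289 and 5826 bp untreated and 6927 and 6937 bp with TWEAK. Hs578T KO cells had 6147 and 6078 bp untreated and 6338 and 7619 bp with TWEAK. Control cells of MDA-MB-231 had 5956 and 7597 bp against 7626 and 8148 bp. Those of Hs578T had 7628 and 5998 bp against 7215 and 6945 bp, with overlap.

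The mean fold with TWEAK was 1.76 times the untreated mean in MDA-MB-231 control cells and 1.54 times in Hs578T control cells, against 0.871 and 1 in KO cells. The TWEAK difference of control cells was 15.1 (exact permutation p = 0.0556, adjusted p = 0.0694), that of KO cells -1.03 (exact permutation p = 0.444, adjusted p = 0.513). The TWEAK differences of control and KO cells differed by 16.1 (exact permutation p = 0.0123, adjusted p = 0.0265). KO lists were lower than control lists, with a mean difference of -11.1 (exact permutation p = 0.00463, adjusted p = 0.0174). In MDA-MB-231 the KO mean was 0.75 times the control mean untreated and 0.371 times with TWEAK, and in Hs578T 0.971 and 0.63 times. MDA-MB-231 lists differed from Hs578T lists by -6.99 (exact permutation p = 0.00154, adjusted p = 0.0116). In the control TWEAK lists between 0.17% and 0.622% of the peaks of the same list had a higher fold, in the other Hs578T lists 0.638% to 1.39%, and in the other MDA-MB-231 lists 4.06% to 6.33%. These results rest on region 27. With the window limited to the member genes the highest fold was that of the CXCL2 peak in 13 lists and that of region 24, upstream of CXCL3, in 3 of the 4 control TWEAK lists (MDA-MB-231 sample 2 and both of Hs578T). The difference between the TWEAK effects of the genotypes was then -0.222 (exact permutation test, adjusted p = 0.928), and those between KO and control and between the lines no longer passed (-2.67 and -2.75, exact permutation test, adjusted p = 0.0926 for both).

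**Figure D2:**
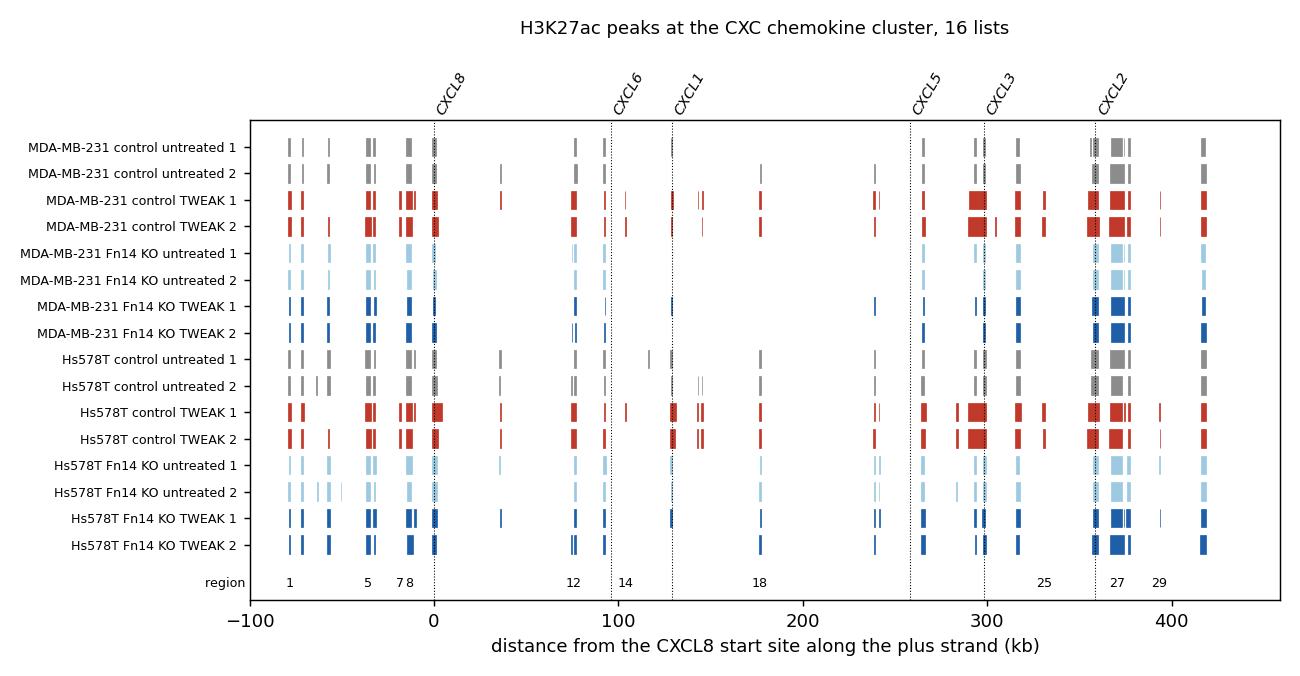
Peaks called in each of the 16 lists along the window, plotted by distance from the CXCL8 start site (kb, plus strand), with the start sites of the members as dotted lines and some region numbers below. The 4 control TWEAK lists show a single block over CXCL3 of 9168 to 9764 bp, where every other list has 1259 to 2803 bp under peaks.

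Of the 6 members, CXCL3 differed most in covered bp near its start, and as a ratio of the control TWEAK mean to the mean of the other 12 lists CXCL1 differed slightly more (4.9 against 4.59). Its gene (ENSG00000163734.4, chr4:74036589-74038807, minus strand) encodes a chemokine that signals through CXCR2. Within 10 kb of the start, MDA-MB-231 control cells had 1999 and 2076 bp under peaks untreated and 9168 and 9967 bp with TWEAK. Hs578T control cells had 2372 and 2803 bp untreated and 9760 and 9764 bp with TWEAK. Untreated and TWEAK lists were far apart in both lines, and the TWEAK values of the lines were close to each other. KO cells had 2426 and 1275 bp untreated and 1415 and 1259 bp with TWEAK in MDA-MB-231, and 2421 and 2620 bp untreated and 2791 and 1834 bp with TWEAK in Hs578T. All KO lists lay in the range of the untreated control lists of both lines together or below it. Within MDA-MB-231, 1 untreated KO list (2426 bp) lay above both untreated control lists.

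In region 23 (chr4:74030091-74039878), which holds the CXCL3 gene, the peak over the start was 1038 to 1735 bp wide in the 12 lists other than control TWEAK. In the control TWEAK lists it was 9168, 9546, 9760 and 9764 bp wide, 1 continuous peak from upstream of the start to beyond the end of the gene. Its fold was 9.38, 10.3, 12.3 and 11 in those lists and 5.41 to 7.36 in the other 12. A run of 3054 bp from within the gene to downstream of it and a run of 2458 bp further downstream were covered in all 4 control TWEAK lists and in no other list. In the whole window 9810 of the 76761 bp covered in any list (12.8%) were of this kind, against 0.929% over the genome.

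Upstream of CXCL3, region 24 (chr4:74055495-74058601, 16.7 kb from the start, between genes) had a peak in every list. Its fold was 16.3 and 17.1 in MDA-MB-231 and 17.8 and 18.3 in Hs578T control cells with TWEAK, and 5.86, 7.44, 7.5 and 7.63 in the untreated control lists. KO lists of both treatments had 5.88 to 8.67. The control TWEAK lists were thus above all others in fold, and also in covered length (2727 to 3107 bp against 1629 to 2396 bp).

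CXCL2 (ENSG00000081041.9, chr4:74097040-74099196, minus strand), a further CXCR2 ligand, had the strongest start-site peak of the members. In MDA-MB-231 control cells 4788 and 5088 bp within 10 kb of its start were covered untreated and 7347 and 8946 bp with TWEAK. In Hs578T control cells 6174 and 5256 bp were covered untreated and 8134 and 8601 bp with TWEAK. These groups did not overlap in either line, whereas the KO lists did, with 4281 and 3929 bp untreated and 4680 and 4032 bp with TWEAK in MDA-MB-231. KO cells of Hs578T had 4746 and 4441 bp untreated and 4621 and 5781 bp with TWEAK. The 10 kb around the CXCL2 start reach into region 27.

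Within region 26 (chr4:74094397-74101017), which contains CXCL2 alone among the members, the called peak was wider with TWEAK in control cells and its fold was not higher. The covered length was 3409 and 3040 bp untreated and 5289 and 6438 bp with TWEAK in control MDA-MB-231 cells, and 4051 and 3746 bp untreated and 5777 and 6137 bp with TWEAK in Hs578T control cells. KO lists had 2474 to 3598 bp. The fold was lower with TWEAK in control cells of both lines, from 20.7 and 19.2 to 17.1 and 17.1 in MDA-MB-231 and from 17.8 and 18.8 to 17.4 and 16 in Hs578T. It was lower with TWEAK in KO cells of both lines too (13.7 and 13.1 against 12.8 and 11.4, and 19.5 and 19.1 against 18.8 and 17.1). In broad peak calls the fold is a mean over the peak, so width and fold are not independent measures.

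**Figure D3:**
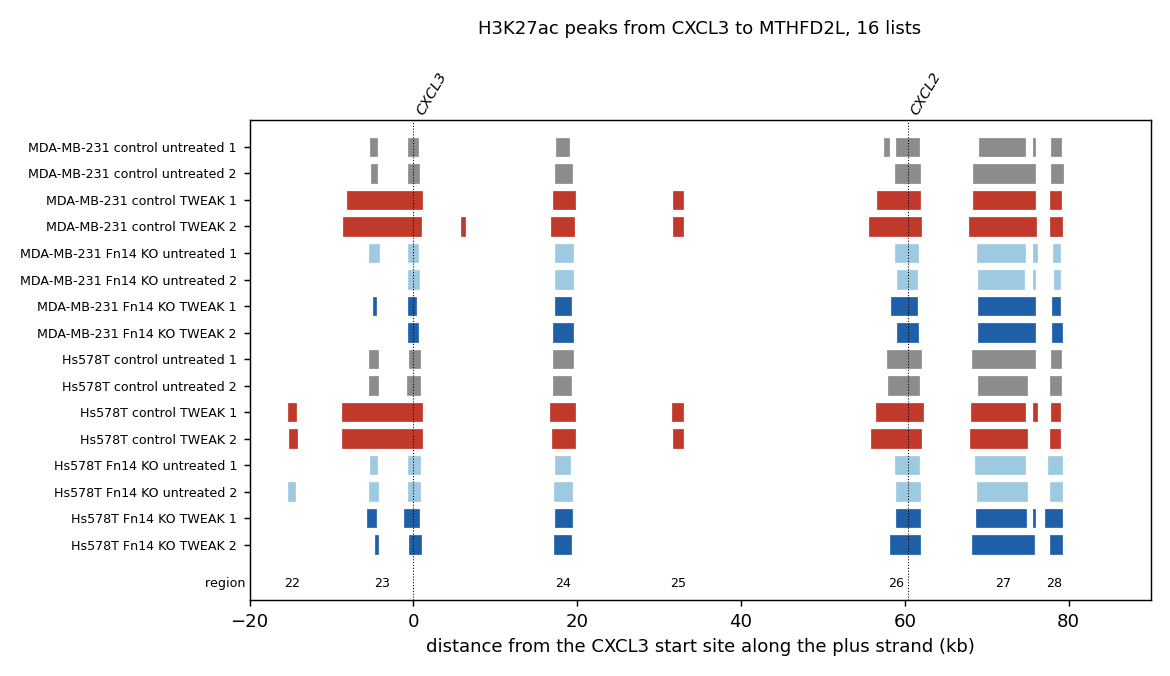
Peaks of each list from CXCL3 to the start of MTHFD2L, by distance from the CXCL3 start site (kb, plus strand), with the starts of CXCL3 and CXCL2 as dotted lines and region numbers below. Region 25, between CXCL3 and CXCL2, has a peak of 1189 to 1337 bp in the 4 control TWEAK lists and none in the other 12.

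Between CXCL3 and CXCL2, region 25 (chr4:74070436-74071772) had a peak of 1206 and 1257 bp in MDA-MB-231 and 1337 and 1189 bp in Hs578T control cells with TWEAK. The fold was 8.18, 7.7, 7.47 and 6.06 in these lists, and no peak was called there in any of the other 12. Region 7 (chr4:73721622-73722470), upstream of CXCL8, followed the same order with weaker peaks of 3.14 to 4.8 fold. These 2 of the 30 regions had a peak in all 4 control TWEAK lists and in none of the 12 others, against 1.62% of all consensus regions.

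CXCL8 (ENSG00000169429.12, chr4:73740519-73743716, plus strand) encodes interleukin-8, which signals through both CXCR1 and CXCR2. Within 10 kb of its start 2025 and 2205 bp were covered in untreated and 2959 and 3364 bp in TWEAK-treated MDA-MB-231 control cells. Hs578T control cells had 2295 and 2815 bp untreated and 5442 and 3381 bp with TWEAK. The groups were apart in both lines, although the pair of Hs578T TWEAK lists differed by more than the step from the untreated lists to the lower of them. KO cells had 1679 and 1889 bp untreated and 1317 and 2177 bp with TWEAK in MDA-MB-231, and 2791 and 2456 bp untreated and 3021 and 2256 bp with TWEAK in Hs578T, with overlap in both. The fold of the start-site peak of CXCL8 was 8.03 to 11.8 in the control TWEAK lists and 4.24 to 10.4 in the others and overlapped.

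The larger steps in fold near CXCL8 were at sites upstream of it. Region 8 (chr4:73725182-73729040, 11.5 kb upstream, between genes) had a fold of 4.71 and 5.49 untreated and 14.1 and 16.9 with TWEAK in control MDA-MB-231 cells. The same peak in Hs578T control cells had 4.64 and 5.41 untreated and 11.5 and 11.1 with TWEAK. KO lists of both lines and treatments had 4.59 to 6.11. Region 5 (chr4:73703169-73706138), 34.4 kb upstream and close to the lncRNA gene UMLILO, had a fold of 17.9 to 21.2 in the control TWEAK lists and 8.83 to 14.5 in the other 12. Region 1 (chr4:73661187-73663162), 77.4 kb upstream, had 7.93 to 9.84 against 2.82 to 4.86.

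CXCL1 (ENSG00000163739.5, chr4:73869393-73871308, plus strand), a CXCR2 ligand also known as GROα, had a start-site peak (within 2 kb) in 11 of 16 lists. MDA-MB-231 control cells had 411 and 0 bp within 10 kb untreated and 1206 and 930 bp with TWEAK. Hs578T control cells had 819 and 632 bp untreated and 3063 and 2889 bp with TWEAK. Groups did not overlap in either line. KO cells of MDA-MB-231 had no peak in 3 of 4 lists, with 0 and 0 bp untreated and 312 and 0 bp with TWEAK, and those of Hs578T had 1013 and 706 bp untreated and 1055 and 0 bp with TWEAK. The fold of the start-site peak was 4.69 to 5.6 in the control TWEAK lists and at most 3.9 elsewhere, so that peaks in the other lists were near the calling threshold, where a peak can be missed without a difference in acetylation. Region 18, 47.2 kb downstream of the CXCL1 start, was also higher in fold in the control TWEAK lists (5.63 to 8.33) than in the others (0 to 4.34).

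CXCL5 (ENSG00000163735.7, chr4:73995642-73998677, minus strand), which encodes ENA-78, and CXCL6 (ENSG00000124875.10, chr4:73836640-73849064, plus strand), which encodes GCP-2, had no peak within 2 kb of the start in any of the 16 lists. The nearest peak was 6005 to 7111 bp from the CXCL5 start and 3110 to 3486 bp from the CXCL6 start. Upstream of CXCL5, in region 21 within the lncRNA gene ENSG00000287037, MDA-MB-231 control cells had 1192 and 1224 bp untreated and 1255 and 1444 bp with TWEAK, and Hs578T control cells 1585 and 1588 bp untreated and 2360 and 2165 bp with TWEAK. KO cells of MDA-MB-231 had 1024 and 1138 bp untreated and 395 and 911 bp with TWEAK, and those of Hs578T 1729 and 1571 bp untreated and 1795 and 1816 bp with TWEAK. The values with TWEAK were thus above the untreated ones in control cells of both lines and in Hs578T KO cells, and below them in MDA-MB-231 KO cells.

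CXCL6 went the other way in MDA-MB-231 control cells, with 1178 and 1165 bp untreated and 774 and 820 bp with TWEAK within 10 kb of its start. Hs578T control cells had 1141 and 1006 bp untreated and 1033 and 994 bp with TWEAK, which overlapped. KO cells had 1252 and 888 bp untreated and 443 and 950 bp with TWEAK in MDA-MB-231, and 1146 and 1345 bp untreated and 1163 and 1246 bp with TWEAK in Hs578T, also with overlap. Region 13, 3.11 kb upstream of the CXCL6 start, had a fold of 3.02 to 3.8 in the control TWEAK lists and 3.84 to 6.61 in the other 12. It was 1 of 2 regions of the window in which the control TWEAK lists were lower than all others in fold. The other was region 4, 56.2 kb upstream of CXCL8, at 0 to 3.03 against 3.1 to 5.89. In covered length region 13 had 1141 and 1006 bp untreated and 509 and 994 bp with TWEAK in Hs578T control cells, without overlap. Region 14, in an intron of CXCL6, added 524 bp within 10 kb of the start in Hs578T control TWEAK sample 1. Of the sequence within 2 kb of the CXCL6 start, 20.1% of 50-base words also occur elsewhere in the window, against 0% for CXCL8 and CXCL5 and 1.95% to 3.77% for CXCL1, CXCL3 and CXCL2. How reads that map to several places were treated is not given in the sources used here.

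**Figure D4:**
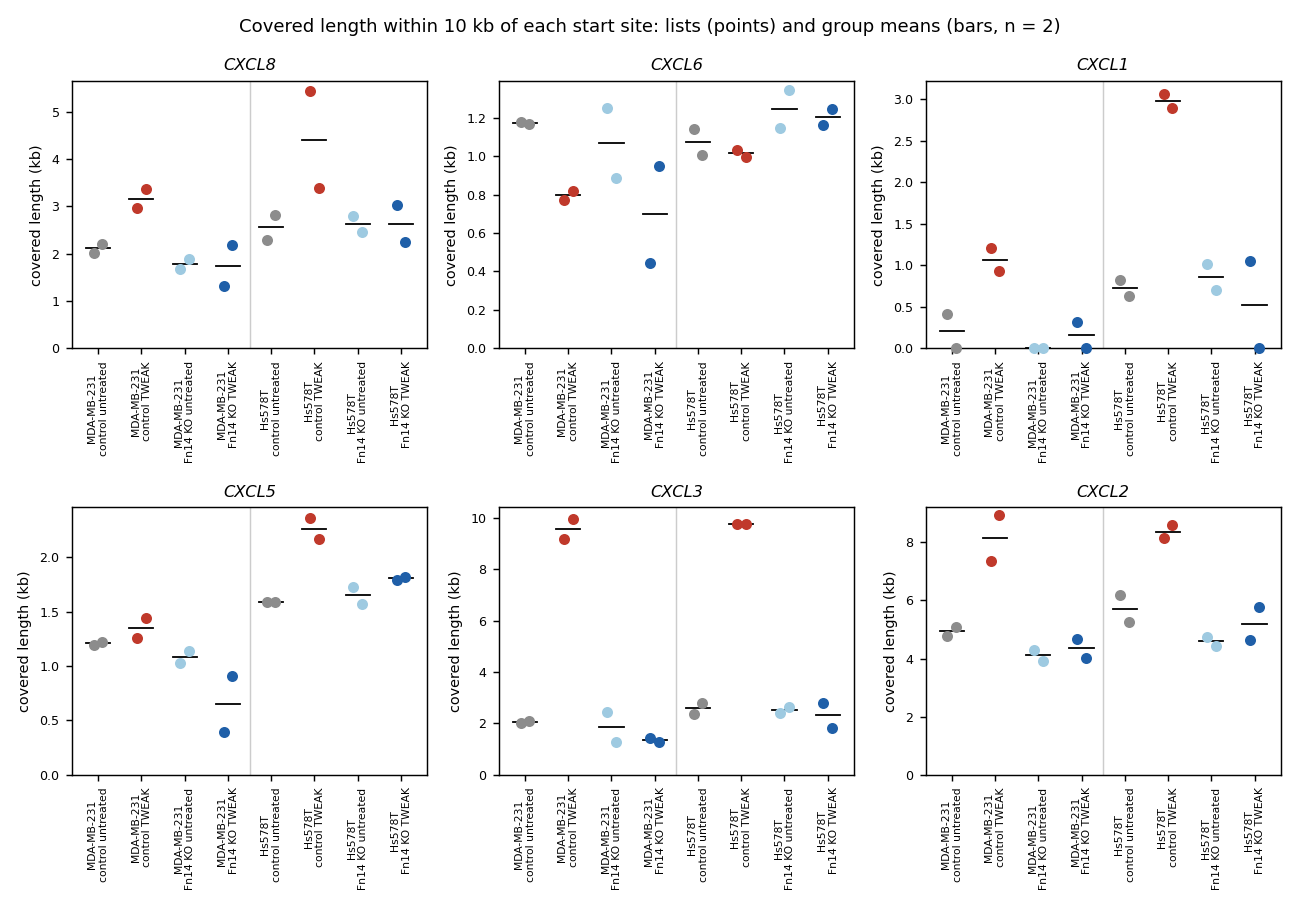
Covered length (kb) within 10 kb of the start site of each member, for each list (points) and group mean (bars, n = 2), by line, genotype and treatment. CXCL3 reaches 9168 to 9967 bp in the 4 control TWEAK lists and at most 2803 bp in the other 12, while CXCL6 stays between 443 and 1345 bp in all lists.

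Counted over the members, the covered length within 10 kb of the start was higher in both TWEAK lists than in both untreated lists for 5 of 6 in MDA-MB-231 control cells (all but CXCL6), where 12.7% of all protein-coding genes were. The reverse held for 1 of 6, CXCL6, against 17.3% of all genes. In Hs578T control cells 5 of 6 members were higher (all but CXCL6), against 11.6% of all genes, and 0 were lower, against 20.9%. The same rule found 0 members higher and 1 lower (CXCL5) in MDA-MB-231 KO cells, against 5.62% and 10.8% of all genes. In Hs578T KO cells it found 1 higher (CXCL5) and 0 lower, against 11.3% and 9.85%. After TWEAK, 5 of 6 members, all but CXCL6, were lower in both KO lists than in both control lists in MDA-MB-231, against 24.6% of all genes, and the same 5 in Hs578T, against 9.84%. After TWEAK 0 members were higher in KO cells in MDA-MB-231, against 10.4% of all genes, and 1 (CXCL6) was in Hs578T, against 28.6%. Without TWEAK, KO lists were lower for 3 members in MDA-MB-231 (CXCL8, CXCL5 and CXCL2), against 15.7% of all genes, and higher for 0, against 6.17%. In untreated Hs578T cells 1 member (CXCL2) was lower in KO lists, against 8.52% of all genes, and 1 (CXCL6) was higher, against 18.3%. All protein-coding genes include some with 0 bp in every list, which this rule cannot call, whereas each member had covered bp in some lists. A share over genes with peaks was not computed. Neighbouring members share parts of the same chromatin and are not independent of each other.

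The regions of the window were counted in the same way. Gained regions had a peak in both TWEAK lists of a line and genotype and in no untreated list, and lost regions the reverse. MDA-MB-231 control cells gained 5 of the 30 regions (7, 14, 17, 25 and 29), where 5.58% of all consensus regions were gained, and lost 0, against 4.49%. Hs578T control cells gained 4 (7, 22, 25 and 29), against 5.09% of all, and lost 0, against 4.65%. In KO cells of MDA-MB-231 0 were gained and 0 lost, against 0.321% and 1.35% of all regions, and in those of Hs578T 0 and 0, against 1.05% and 0.829%. At background shares this low, a count of 0 among 30 regions is close to the background. Region 14 lies in an intron of CXCL6, region 17 lies 15.9 kb downstream of the CXCL1 start and region 22 lies 14.3 kb downstream of the CXCL3 start. Region 29 had a fold of only 2.71 to 4.01 in the control TWEAK lists. It also had a peak in 1 untreated and 1 TWEAK list of Hs578T KO cells. Regions 14 and 17 had a fold of 2.68 and 2.96, and 2.88 and 3.49, in the MDA-MB-231 control TWEAK lists. Region 22 had 3.57 and 3.29 in those of Hs578T. All of these values lay below the median fold of the same list. Region 17 also had a peak in 1 untreated Hs578T control list and region 22 in 1 untreated Hs578T KO list.

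Regions were also ordered by their values rather than by presence, a comparison added after the data had been seen. In covered length the 4 control TWEAK lists were above all 12 others in 9 of the 30 regions and below them in 0, where 5.09% of all consensus regions were above and 2.5% below. In fold they were above in 10 regions, against 10.6% of all, and below in 2, against 1.87%. The regions above in fold were 1, 5, 7, 8, 15, 18, 23, 24, 25 and 27, which take in the starts of CXCL1 and CXCL3 but not those of CXCL8 and CXCL2. A peak in every list was found in 15 of the 30 regions (50%), close to the 51.3% of all consensus regions.

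**Figure D5:**
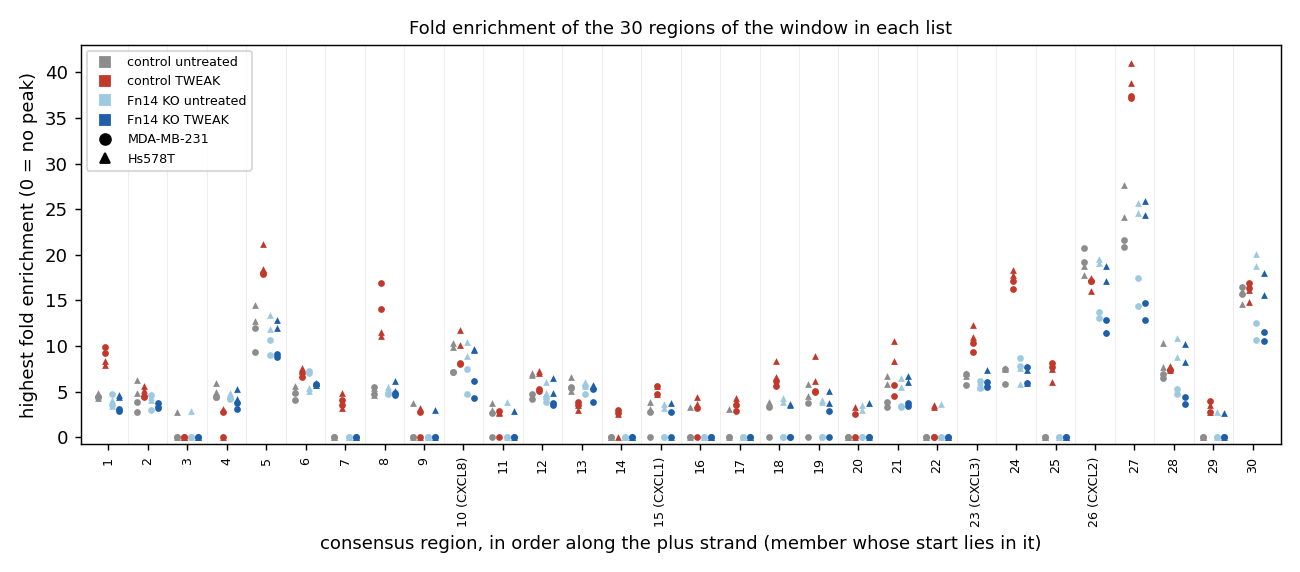
Highest fold enrichment in each of the 30 regions of the window, in order along the plus strand, for each list (points, 0 where no peak was called), with the member whose start lies in a region named on the axis. Region 27 reaches 37.2 to 41 in the control TWEAK lists and 12.9 to 27.7 in the others, and region 24 reaches 16.3 to 18.3 against 5.86 to 8.67.

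When peaks at most 12.5 kb apart were joined into domains and the domains of a list ranked by covered length, the domain of CXCL3 was in the top 2.13% to 4.97% of the control TWEAK lists and between 26% and 62.1% in the other lists. For the domain of CXCL2 the rank was 1.62% to 2.41% against 3.04% to 5.31%, and for that of CXCL8 it was 4.58% to 8.17% against 10.8% to 19%. For these 3 genes the control TWEAK lists were ahead of all others. The domain of CXCL1 was at 15% and 16.6% in the Hs578T control TWEAK lists, but at 64.6% and 75.2% in those of MDA-MB-231, within the 52.4% to 92.2% of the 6 other lists that had one. A domain over the CXCL6 start was formed in 3 control TWEAK lists only, at 70.8% to 80.7%. Ranking on covered length stands in for a ranking on reads.

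Among the genes around the members, PF4V1, PF4 and PPBP, platelet chemokine genes inside the cluster, were counted as higher with TWEAK in 3 of 3 cases in MDA-MB-231 and in 2 of 3 (PF4 and PPBP) in Hs578T control cells, and in 0 of 3 in KO cells of both lines, beside 12.7% and 11.6% of all genes in control and 5.62% and 11.3% in KO cells. PF4V1 and PPBP had no peak within 2 kb of the start in any list and PF4 had one in 5. The PF4 and PPBP values, 334 to 1044 bp in the control TWEAK lists and 0 to 1304 bp in the others, overlapped. These 2 genes had the same values because the same peaks lie within 10 kb of both starts. In MDA-MB-231 the PF4V1 count came from region 14, which also lies within 10 kb of the CXCL6 start. MTHFD2L was higher with TWEAK in KO cells of both lines and not in control cells. Of the 5 neighbours outside the window, 0 were higher and 1 (EREG) was lower in MDA-MB-231 control cells, and 2 (EPGN and AREG) were higher in Hs578T control cells, beside 12.7% and 11.6% of all genes higher and 17.3% lower in MDA-MB-231. EREG, AREG and EPGN encode ligands of the EGF receptor family.

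The receptor genes CXCR1, CXCR2 and ACKR1 had 0 bp under peaks within 10 kb of the start in all 16 lists. Of 8 other CXC ligand genes, 1 was counted as higher with TWEAK, CXCL11, a CXCR3 ligand, in both genotypes of both lines. As a share, 1 of 8 is close to the 12.7% and 11.6% of all genes that were higher in control cells. It had 1150 to 1594 bp in the control TWEAK lists and 474 to 762 bp in the other 12. CXCL12, CXCL13, CXCL14 and CXCL17 had 0 bp in every list and so could not be counted as higher or lower.

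Of 12 genes for transcription factors and feedback regulators of the NF-κB, AP-1 and C/EBP families, 5 were higher with TWEAK in control cells of both lines, namely NFKB2, NFKBIA, TNFAIP3, BIRC3 and CEBPB. Of all genes, 12.7% were higher in MDA-MB-231 and 11.6% in Hs578T control cells. TNFAIP3, which encodes the feedback inhibitor A20, had 4673 to 5531 bp in the control TWEAK lists and 1239 to 2532 bp in the other 12. NFKB2, which encodes the p100 precursor of the non-canonical pathway, had 6650 to 7673 bp against 3282 to 4750 bp, and NFKBIA, which encodes IκBα, 9998 to 10687 bp against 3886 to 7080 bp. BIRC3, which encodes cIAP2, had 10266 to 13058 bp against 4333 to 7043 bp, while the CEBPB ranges overlapped. JUN was lower in control cells of both lines, and REL was lower in Hs578T, beside 17.3% and 20.9% of all genes lower. FOSL1 had 20001 bp in every list, the whole stretch counted, and could not be called higher or lower. In KO cells 0 of 12 were higher and 3 (NFKBIA, NFKBIZ and TNFAIP3) were lower in MDA-MB-231, and 1 (CEBPB) was higher and 0 were lower in Hs578T. Of all genes 5.62% were higher and 10.8% lower in MDA-MB-231 KO cells, and 11.3% and 9.85% in those of Hs578T. The list was chosen with results of these data known.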

How the data were processed

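H3K27ac ChIP-seq had been performed on 16 samples, 2 for each combination of line, genotype and treatment, and samples were grouped by their titles. Per the labels and the study's methods, the authors used Trimmomatic for trimming, Bowtie2 for alignment to hg38 and MACS2 for peak calling against input, and they removed blacklisted regions with bedtools. Tool versions and the treatment of multi-mapping reads are not given in the sources used here. Each sample had 1 deposited list, called on that sample alone. The deposited score is 10 times the −log10 q-value without decimals, and the deposited ratio is a fold over local background, which in broad calls is a mean over the peak. The remaining deposited columns are the −log10 p-value and the −log10 q-value, the smallest of which was 1. The column layout is that of broad calls. Reads were not used here, the depth is unknown, and values carry no counting interval.

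Peaks sharing at least 1 bp were merged across lists, and only regions supported by 2 or more lists were used. For each list the covered bp, peak number and highest fold in the window were computed, and the covered bp within 10 kb and 2 kb of each GENCODE 44 start. Groups were compared by two-sided exact permutation tests that exchanged treatment labels within line and genotype (1296 arrangements, or 36 within 1 genotype), or genotype or line labels within the other factors, and Benjamini-Hochberg adjusted over 15 tests at a threshold of 0.05. The test of the difference between TWEAK effects exchanges treatment labels in both genotypes, so it assumes no treatment effect in either. Counts of genes and regions have no test. The scripts were tested on simulated data.

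The genes named are the 6 members, other genes of the window and its neighbours, CXC receptors and other CXC ligands, NF-κB, AP-1 and C/EBP genes, cell type markers and the 5 genes most like the cluster. The members and lists were chosen with earlier results of these data known. Alternatives were strict peaks (−log10 q-value of at least 8.38, the median over all lists), lists trimmed to the shortest, no flank or 50 kb, scaling to covered length, a 2 kb distance, 50% coverage of a region, regions of at least 1 list, a replicate block, and leaving out each list. Dividing the fold by the list's median fold was added after seeing the data. Python 3.11.15, numpy 2.4.6, scipy 1.17.1, matplotlib 3.10.9 and Biopython 1.88 were used.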

Additional observations from a re-analysis of the deposited data

Results flagged for a closer look

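The highest fold enrichment in the window was that of region 27, which lies upstream of CXCL2 and takes in the MTHFD2L start. Its mean step with TWEAK was 15.1 in control lists and -1.03 in KO lists, which lie 16.1 apart (exact permutation test, adjusted p = 0.0265). That test assumes no treatment effect in either genotype, so by itself it does not show unequal responses. In covered length region 27 was higher with TWEAK in KO cells of both lines, as given above. With the window limited to the member genes, which leaves region 27 out, the value was -0.222 (exact permutation test, adjusted p = 0.928).

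In 9 further results every TWEAK list of control cells moved one way and every TWEAK list of KO cells of the same line the other way, and these differences were not tested. They came from 6 members in covered length and 30 regions in covered length and fold, each in both lines. In MDA-MB-231 opposite order was found in 5 of the 30 regions in fold, 1 in covered length and 1 of the 6 members, against 6.51%, 4.62% and 3.3% of all regions or genes. In Hs578T it was found in 1 region in fold, 1 in covered length and 0 members, against 5.74%, 6.1% and 4.71%, close to the background. The covered length within 10 kb of the CXCL5 start differed with TWEAK by 141.5 bp in control and -428.0 bp in KO cells of MDA-MB-231, a difference of 569.5 bp. The peaks counted there are those of region 21, so its covered length gave the same 569.5 bp, while its fold in MDA-MB-231 KO cells moved the other way, with 3.28 and 3.4 untreated and 3.46 and 3.69 with TWEAK. In the same line the fold of region 24, upstream of CXCL3, differed by 10.1 in control and -1.39 in KO cells (a difference of 11.5), and that of region 1, upstream of CXCL8, by 5.14 and -1.12 (6.26). Smaller opposite steps in fold were found in MDA-MB-231 at region 6 (2.38 and -1.34, a difference of 3.72), region 12 (0.713 and -0.365, a difference of 1.08) and region 28 (0.691 and -0.994, a difference of 1.68). In Hs578T, region 18 downstream of CXCL1 differed by 3.67 in fold in control and -0.479 in KO cells (4.15), and by 296.0 and -225.0 bp in covered length (a difference of 521.0 bp). The median −log10 q-value of the MDA-MB-231 KO lists was lower than that of the control lists, and its part in the 7 results of that line was not tested.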

How the results depend on the processing

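Exact permutation tests with Benjamini-Hochberg adjustment were repeated under each alternative. Keeping strict peaks (−log10 q-value of at least the median over all lists), a flank of 50 kb and, chosen after seeing the data, the fold divided by the median fold of its list changed no test's call. Whether the replicate numbers pair the samples is not given in the sources used here. The deviations in fold of same-numbered untreated and TWEAK lists correlated by 0.00453 to 0.0703 over 55219 regions. Regions without a called peak count as 0 in this, so it cannot tell whether same-numbered samples shared a culture or day. With the replicate block 15 of 15 calls were as before, for instance 16.1 for the genotype difference in highest fold (exact permutation test, adjusted p = 0.0335), and 0.125 was the smallest p-value possible within 1 genotype. Without flanks the highest fold gave -1.52 for TWEAK in control cells, -0.222 for the genotype difference in TWEAK effects, -2.67 for KO against control and -2.75 between lines, of which none passed, while in covered bp the genotype difference passed (19329.2) as it did with trimmed lists (21385.5). Scaled to covered length the line difference was -27.3 bp per Mb and did not pass. The TWEAK difference of KO cells in covered bp, 110.8, became -37.5 with trimmed lists, -924.2 without flanks and -814.5 to 1036.0 with each list left out. Leaving out each list gave 20917.0 to 23227.5 for the genotype difference in covered bp, which passed without MDA-MB-231 KO untreated 2 (22997.5), MDA-MB-231 KO TWEAK 2 (22654.0), Hs578T KO untreated 2 (22299.2) or Hs578T KO TWEAK 1 (22865.0). In peak number it gave -4.5 to -3.25 for KO against control, -1.75 to 0.75 for TWEAK in KO cells and 4 to 6.5 for the genotype difference, which passed without MDA-MB-231 KO untreated 2 (5.75) or Hs578T KO TWEAK 1 (6.5). The cause of these shifts was not tested. Members higher with TWEAK numbered 3 in MDA-MB-231 control cells with strict peaks and 0 in Hs578T KO cells within 2 kb, and with each list left out 0 to 2 in MDA-MB-231 KO and 2 to 4 in Hs578T KO cells, where the rule then asks for 1 list fewer. Gained regions numbered 3 in MDA-MB-231 control cells with strict peaks or trimmed lists, and 2 in Hs578T control cells with trimmed lists and 8 with 50% coverage. Lost regions numbered 1 in MDA-MB-231 control cells with strict peaks, trimmed lists or 50% coverage and 1 in Hs578T control cells with strict peaks. With each list left out, gained regions were 5 to 8 in MDA-MB-231 control, 0 to 2 in MDA-MB-231 KO and 0 to 1 in Hs578T KO cells, and lost regions 0 to 1 in MDA-MB-231 control, 0 to 1 in Hs578T control and 0 to 2 in Hs578T KO cells. Shares over all genes or regions were not computed under these alternatives. The shares given earlier belong to the main rule, so these counts have no background beside them and are given as a description. With depth unknown and 2 lists a group, a peak near the calling threshold can be missed without a difference in acetylation. Such peaks were found at CXCL1 and in regions 14, 17, 22 and 29.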

Other observations

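Genes outside the window were compared with the cluster by the Pearson correlation, over the 16 lists, between the covered length within 10 kb of their start and the covered length of the window. Of 14403 genes compared, the 5 highest were YJU2B (r = 0.974), GPIHBP1 (0.969), ZNF462 (0.967), LACTB2 (0.963) and XKR9 (0.963), where LACTB2 and XKR9 start next to each other and share the same peaks. YJU2B had 4050 to 4685 bp in the control TWEAK lists and 2721 to 3458 bp in the other 12, and ZNF462 6331 to 6766 bp against 4981 to 5661 bp. The lists share their groups and their total covered length, and the correlations are given as a description.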
